A study of Mus musculus with 41 samples.

Results

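Spats2 and Wdr20a were followed across 4 diet regimens in 41 mammary tumors, through every array probe that carries either gene name. The arrays hold 1 probe for Spats2 and 2 for Wdr20a among 39429 probes with 30175 different names, and all 3 probes passed the filter on signal that left 27304 probes. Both genes were selected on their log2 ratios in the contrast of pubertal HFD with pubertal LFD, in an earlier processing of these same arrays. Differences between pubertal diets and between regimens are therefore described here and not tested. Counts of tumors beyond the other diet's range are descriptions too, and how many of all probes give such counts was not determined.

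The tumors arose from Trp53-null mammary duct fragments placed in the cleared fat pads of wild-type female BALB/c mice, so the host tissue of every tumor kept Trp53. Mice ate a low fat diet throughout (LFD, 11 tumors), a high animal fat diet throughout (HFD, 11), HFD in puberty and LFD as adults (HFD-LFD, 10), or LFD in puberty and HFD as adults (LFD-HFD, 9). The labels give the morphology of 29 tumors as p53 variable, taken here as the study's epithelial tumors, and of 12 as p53 spindle-like. They mark 14 epithelial tumors as early and 15 as late, and 3 spindle cell tumors as early and 9 as late. For epithelial tumors the study drew this line at a latency of a year. Each tumor's RNA was hybridised on 1 two-colour array beside a common reference RNA pooled from mouse cell lines, and a log2 ratio here is tumor over reference.

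The labels put the tumor in Cy5 (red) and the reference in Cy3 (green) on every array, whereas the study's methods text names Cy5 for the reference. Over the 27304 probes, the median SD across the 41 arrays was 0.68 in Cy5 and 0.34 in Cy3, and Cy5 varied more for 85.8% of probes. The labels were followed. If the methods text held, the sign of every log2 ratio and of every difference between log2 ratios would turn and the names of the channels would change places, while the differences within a channel and the correlations between ratios would keep their signs. Labels name no replicate animals, and some tumors share a label number (MSU_11L with MSU_11R, MSU_117L with MSU_117R, and MSU_56R with MSU_M56LA if the M is set aside), so a p-value measures only the spread between these tumors.

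Wdr20, the current name of Wdr20a, is a WD40-repeat protein. It joins the deubiquitinases Usp12 and Usp46 together with Wdr48 (UAF1) and raises their activity, and the Akt phosphatases Phlpp1 and Phlpp2 are among the proteins these enzymes stabilise. Spats2 (spermatogenesis associated serine-rich 2) is a little-studied RNA-binding protein first described in testis, with the close relative Spats2l.

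The probe sequences are shown because the Wdr20a probes read different stretches of the gene and gave different answers over all tumors. Capitals mark the longest run made of A and T alone within the printed bases. For Spats2 and the Wdr20a 3′ probe, bases 1 to 30 of 60 are printed.
Spats2, chr15:99042754-99042813: AAAccaagggcctctcaggctgaagctgcg
Wdr20a 3′ probe, chr12:112032937-112032996: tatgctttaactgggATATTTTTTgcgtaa
Wdr20a internal probe, chr12:112017536-112017595: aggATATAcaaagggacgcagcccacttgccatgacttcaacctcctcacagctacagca
Positions are on mouse build NCBI37/mm9 as the scanner files give them, which list them in ascending order and pair the Wdr20a probes with 1 transcript. The Wdr20a probes lie 15341 bases apart, and the files place them at bases 2125 (3′) and 359 (internal) of that transcript. G and C made up 55.0% of the Spats2 probe, 35.0% of the Wdr20a 3′ probe and 51.7% of the internal probe.

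Spats2 was higher in tumors of mice that ate HFD in puberty. The 21 pubertal HFD tumors had a mean log2 ratio of 0.94 ± 0.57 (SD) and the 20 pubertal LFD tumors one of 0.33 ± 0.42 (SD), a difference of 0.60. The pubertal HFD tumors ran from -0.44 through a median of 0.89 to 2.12, and the pubertal LFD tumors from -0.40 through 0.27 to 1.102. The groups overlapped, with 7 of 21 pubertal HFD tumors above every pubertal LFD tumor and 19 of 21 above the pubertal LFD median. In the fit over all probes 3 of 27304 probes, or 0.011%, passed an adjusted p of 0.10 for this contrast, and since the contrast chose the genes nothing is read from that share.

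The 3′ probe of Wdr20a ran the other way. The same 21 and 20 tumors had mean log2 ratios of 0.45 ± 0.44 (SD) and 0.997 ± 0.32 (SD), a difference of -0.54. Pubertal HFD tumors ran from -0.63 through a median of 0.57 to 1.11, and pubertal LFD tumors from 0.40 through 1.01 to 1.74. Of the 21 pubertal HFD tumors, 8 lay below every pubertal LFD tumor and 20 below the pubertal LFD median.

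Over all tumors the internal probe of Wdr20a did not repeat this. Its means were -0.25 ± 0.67 (SD) in the pubertal HFD and -0.24 ± 0.36 (SD) in the pubertal LFD tumors, a difference of -0.02. Across the 41 tumors the log2 ratios of both Wdr20a probes had a Pearson r of 0.05, a description over points that share a reference and a slide in groups. What sets the probes apart was not tested. For scale, the difference between pubertal diets lay between -0.40 and 0.39 for the middle 90% of all 27304 probes.

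**Figure D1:**
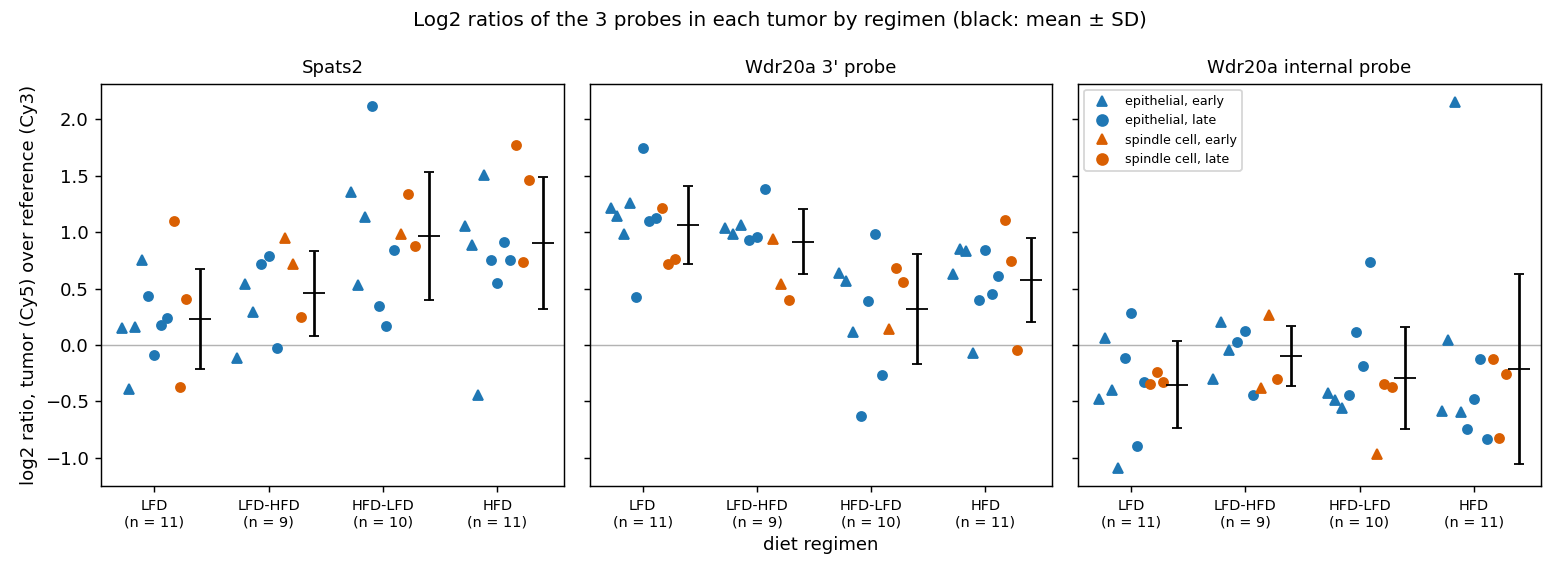
Each point is 1 tumor's log2 ratio of tumor over reference (vertical axis) in the 4 diet regimens (horizontal axis), with colour for histology, shape for onset, and black bars for the mean ± SD. Spats2 sits higher in the HFD-LFD and HFD columns (means 0.97 and 0.90) than in LFD and LFD-HFD (0.23 and 0.46), the Wdr20a 3′ probe sits lower there, and the internal probe shows no such step.

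Set out by regimen, the regimens that began with HFD lay together on one side for Spats2 and for the Wdr20a 3′ probe. At the internal probe they lay between the others, with means of -0.35 in LFD, -0.29 in HFD-LFD, -0.22 in HFD and -0.10 in LFD-HFD. Spats2 had a mean log2 ratio of 0.23 ± 0.44 (SD, n = 11) in LFD, 0.46 ± 0.38 (SD, n = 9) in LFD-HFD, 0.90 ± 0.59 (SD, n = 11) in HFD and 0.97 ± 0.57 (SD, n = 10) in HFD-LFD. HFD and HFD-LFD differed by far less than their spread, and LFD and LFD-HFD by less than the SD of either. The ranges were -0.40 to 1.102 in LFD (median 0.18), -0.11 to 0.95 in LFD-HFD (0.54), -0.44 to 1.77 in HFD (0.89) and 0.17 to 2.12 in HFD-LFD (0.93), so all 4 overlapped.

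The Wdr20a 3′ probe had the reverse order. Its mean was 0.32 ± 0.48 (SD, n = 10) in HFD-LFD, 0.58 ± 0.37 (SD, n = 11) in HFD, 0.92 ± 0.29 (SD, n = 9) in LFD-HFD and 1.06 ± 0.34 (SD, n = 11) in LFD. HFD-LFD and HFD, and likewise LFD-HFD and LFD, differed by less than the SD of either, while the step from HFD to LFD-HFD was larger than the SD of LFD-HFD and smaller than that of HFD. The ranges were -0.63 to 0.98 in HFD-LFD (median 0.48), -0.07 to 1.11 in HFD (0.63), 0.40 to 1.39 in LFD-HFD (0.96) and 0.42 to 1.74 in LFD (1.12). The highest HFD-LFD tumor thus stayed below the median LFD tumor.

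Adult diet was not part of the choice of genes and could be tested. Tumors of adult HFD mice (HFD and LFD-HFD, 20 tumors) and adult LFD mice (21 tumors) had mean Spats2 log2 ratios of 0.70 and 0.58, and in the limma fit with pubertal diet as a term the difference was 0.08 (95% interval -0.24 to 0.40, adjusted p = 0.97). For the Wdr20a 3′ probe the difference was 0.06 (-0.19 to 0.31, adjusted p = 0.98), and for the internal probe 0.17 (-0.18 to 0.51, adjusted p = 0.96). No probe of 27304 (0%) passed an adjusted p of 0.10, with 1184 at an unadjusted p under 0.05 and none of the 3 among them.

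Whether the pubertal difference depended on adult diet was not resolved. Spats2 differed between pubertal diets by 0.45 among adult HFD tumors and by 0.74 among adult LFD tumors, an interaction of -0.29 (95% interval -0.93 to 0.35, limma adjusted p = 0.84). The 3′ probe differed by -0.34 and -0.74, an interaction of 0.41 (-0.09 to 0.90, adjusted p = 0.71), and the internal probe had an interaction of -0.18 (-0.87 to 0.51, adjusted p = 0.91). No probe of 27304 (0%) passed, with 2059 at an unadjusted p under 0.05.

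Within epithelial tumors the Wdr20a 3′ probe differed by -0.67 between pubertal diets and the internal probe by 0.08. The 14 pubertal LFD tumors had 1.097 ± 0.29 (SD) at the 3′ probe and the 15 pubertal HFD tumors 0.42 ± 0.46 (SD). All 15 lay below the pubertal LFD median, and 11 of the 14 pubertal LFD tumors lay above every pubertal HFD tumor. The exceptions were tumor MSU_11L of LFD, at 0.42, and tumors MSU_101L4A and MSU_71L of LFD-HFD, at 0.93 and 0.96, against 0.98 in the highest pubertal HFD tumor, MSU_110R. Spats2 was 0.83 ± 0.60 (SD) in those 15 and 0.26 ± 0.36 (SD) in those 14, with 8 of 15 above every pubertal LFD tumor.

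Split by onset, the early epithelial tumors of both pubertal diets did not overlap at the Wdr20a 3′ probe, which was chosen on this contrast. No early pubertal HFD tumor shared a slide with an early pubertal LFD tumor. The highest early pubertal HFD tumors, MSU_42L4B (0.85) and MSU_60L (0.84), came from a scan session with no pubertal LFD array. How many of all probes separate these groups was not determined. The 7 early pubertal HFD tumors ran from -0.07 through a median of 0.63 to 0.85, and the 7 early pubertal LFD tumors from 0.98 through 1.07 to 1.26. Among late tumors, 8 pubertal HFD tumors ran from -0.63 through 0.42 to 0.98 and 7 pubertal LFD tumors from 0.42 through 1.103 to 1.74, so the groups crossed through tumors MSU_11L, MSU_101L4A and MSU_71L on one side and MSU_110R on the other. In the smaller groups of early tumors, the values were 1.36, 0.53 and 1.14 for Spats2 in HFD-LFD, and -0.11, 0.29 and 0.54 in LFD-HFD. Early HFD tumors had Spats2 at 0.89, -0.44, 1.06 and 1.503, and early LFD tumors at 0.15, -0.40, 0.16 and 0.75, so 3 of the 4 HFD tumors lay above all 4 LFD tumors and tumor MSU_60L lay below them. The onset of 3 HFD tumors is in doubt, since the authors' matrix attaches the names MSU_40R4A, MSU_57R and MSU_65R to each other's arrays. By the matrix's names the array with Spats2 at 0.55 would be early and that with 1.503 late, which leaves 2 of 4, and the early groups would still not overlap at the 3′ probe (0.84 in place of -0.07).

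Onset itself did not separate either gene. Early and late epithelial tumors had mean Spats2 log2 ratios of 0.53 and 0.58, a difference of -0.05 (95% interval -0.48 to 0.38, limma adjusted p = 0.94), beside 37 of 27304 probes (0.136%) called. The 3′ probe differed by 0.11 (-0.28 to 0.50, adjusted p = 0.84) and the internal probe by 0.04 (-0.41 to 0.50, adjusted p = 0.95). Without the 3 tumors of doubtful onset the differences were -0.18, 0.20 and 0.09, and limma called 0 probes. The interaction of pubertal diet with onset was 0.18 for Spats2 (-0.60 to 0.96, adjusted p = 0.92), 0.16 for the 3′ probe (-0.46 to 0.78, adjusted p = 0.91) and 0.28 for the internal probe (-0.65 to 1.22, adjusted p = 0.90). No probe (0%) passed that interaction, and 1916 had an unadjusted p under 0.05.

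Spindle cell tumors kept the step in Spats2 and showed a smaller one at the Wdr20a 3′ probe. Spats2 was 0.74, 1.77 and 1.46 in the 3 HFD tumors, 0.98, 1.34 and 0.88 in HFD-LFD, 0.41, 1.102 and -0.37 in LFD, and 0.95, 0.72 and 0.25 in LFD-HFD. All 6 pubertal HFD tumors lay above the pubertal LFD median, and 4 of the 6 pubertal LFD tumors lay below all of them. At the Wdr20a 3′ probe the 3 HFD tumors were at 0.75, 1.11 and -0.05, the HFD-LFD tumors at 0.14, 0.69 and 0.56, the LFD tumors at 0.77, 1.21 and 0.71, and the LFD-HFD tumors at 0.94, 0.54 and 0.40. The pubertal means there were 0.53 ± 0.42 and 0.76 ± 0.29 (SD, n = 6 each), a difference of -0.23 that is smaller than either SD.

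Whether the pubertal difference itself depended on histology could not be resolved. The interaction at the 3′ probe was 0.44 (95% interval -0.10 to 0.98, limma adjusted p = 0.53), that of Spats2 0.11 (-0.57 to 0.80, adjusted p = 0.93) and that of the internal probe -0.34 (-1.09 to 0.41, adjusted p = 0.77), while 0.392% of the 27304 probes passed (36 higher, 71 lower). Spindle cell and epithelial tumors as such had Spats2 at 0.85 and 0.55, a difference of 0.30 (-0.10 to 0.69, adjusted p = 0.29), although 20.4% of all probes passed an adjusted p of 0.05 in that comparison. The 3′ probe differed by -0.10 (-0.43 to 0.23, adjusted p = 0.70) and the internal probe by -0.15 (-0.52 to 0.22, adjusted p = 0.60). The 12 spindle cell arrays made up one scan session with no epithelial array in it, and scan session cannot be told apart from histology.

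**Figure D2:**
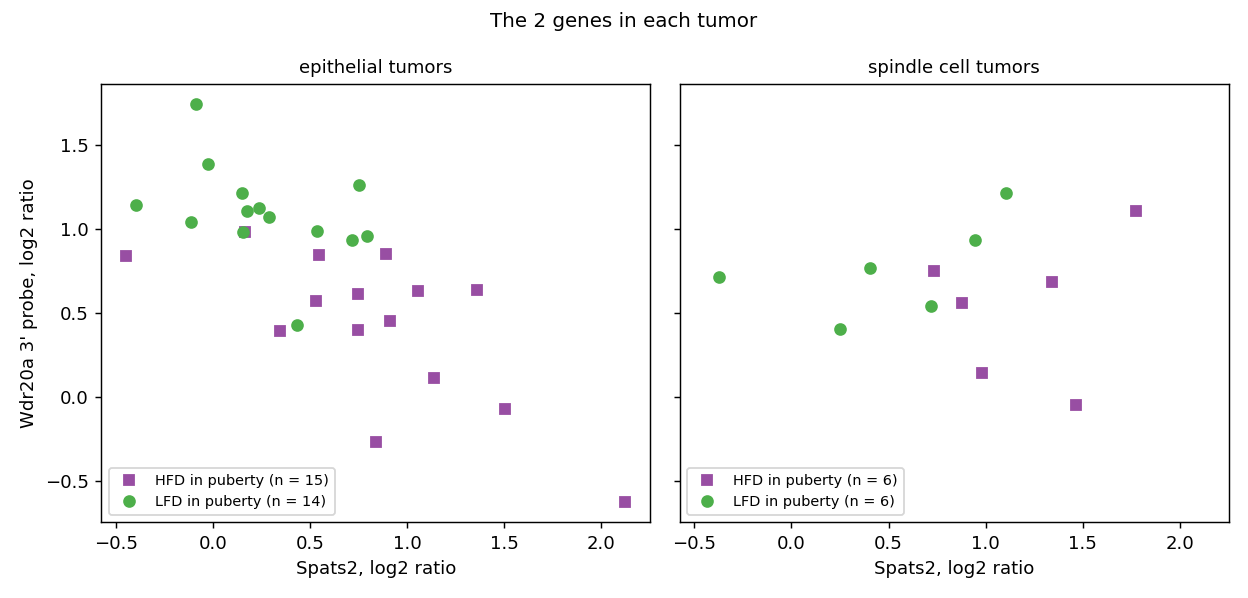
Each point is 1 tumor, with the Spats2 log2 ratio on the horizontal and the Wdr20a 3′ log2 ratio on the vertical axis, for epithelial (left) and spindle cell tumors (right), coloured by pubertal diet. Among the 29 epithelial tumors high Spats2 goes with low Wdr20a 3′ values (r = -0.74), and among the 12 spindle cell tumors the points show no slope (r = 0.06).

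Tumor by tumor, the log2 ratios of Spats2 and the Wdr20a 3′ probe were compared as a description. Both were selected on pubertal differences of opposite sign, which by itself turns a correlation over both diets towards negative values. Their Pearson r was -0.56 over all 41 tumors, -0.74 over 29 epithelial and 0.06 over 12 spindle cell tumors that share slides and a reference. Within 1 pubertal diet r was -0.47 over 21 pubertal HFD tumors and -0.17 over 20 pubertal LFD tumors. Over epithelial tumors alone it was -0.69 in 15 pubertal HFD and -0.40 in 14 pubertal LFD tumors. Tumor MSU_108R of HFD-LFD was the extreme at both ends, with the highest Spats2 (2.12) and the lowest Wdr20a 3′ value (-0.63) of all 41.

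Each channel was also read alone, as a description. After scaling each channel to its own 75th percentile on the array, Spats2 in the tumor channel averaged -0.85 ± 0.66 (SD) in the 21 pubertal HFD tumors and -1.66 ± 0.41 (SD) in the 20 pubertal LFD tumors, a difference of 0.80. The reference channel holds the same RNA on every array, and there the difference was 0.16. For the Wdr20a 3′ probe the tumor channel was -2.01 ± 0.47 and -1.36 ± 0.31 (SD), a difference of -0.64, and the reference channel differed by -0.14. Over all tumors both reference differences lay inside the range of -0.23 to 0.23 that held the middle 90% of all probes in that channel. Among epithelial tumors the Spats2 reference signal differed by 0.24, and by 0.36 among late ones, beside tumor channel differences of 0.86 and 0.85.

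The ratios of Spats2 and the Wdr20a 3′ probe followed the tumor channel more closely than the reference channel. Over the 41 tumors the log2 ratio of the 3′ probe had an r of 0.92 with its Cy5 signal and 0.01 with its Cy3 signal, and Spats2 had 0.85 and 0.05. The pooled Spats2 value for Cy3 joins 0.46 over 29 epithelial and -0.42 over 12 spindle cell tumors, where the values for Cy5 were 0.94 and 0.88. The -0.42 includes tumor MSU_M32L, which had the highest spindle cell Cy3 signal (-1.40) and the lowest ratio (-0.37). The other spindle cell tumors lay from -2.48 to -2.17 in Cy3. Spindle cell r without MSU_M32L was not computed, so no contrast between histologies is read from these signs. By regimen the Cy5 signal of Spats2 was -1.67 ± 0.42 in LFD, -1.63 ± 0.42 in LFD-HFD, -1.002 ± 0.65 in HFD and -0.69 ± 0.68 in HFD-LFD (SD), on the same scale. In HFD-LFD the Spats2 reference signal was also the highest of the 4 regimens, at -1.68 ± 0.46 (SD, n = 10) against -2.10 ± 0.23 (SD, n = 9) in LFD-HFD, and its part in the ratios was not tested.

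The internal Wdr20a probe was different in this respect too. Its reference signal varied as much as its tumor signal, with SDs of 0.85 and 0.82 over the 41 arrays, and both rose and fell together (r = 0.74). On the arrays of tumors MSU_122Rb and MSU_109L (HFD-LFD) the reference signal was -1.07 and -1.59, and on that of MSU_M32L (LFD) -2.23, against a median of -3.41 in the pubertal LFD tumors. The arrays of MSU_122Rb and MSU_109L had 94.9% and 92.6% of spots well above background in Cy5, against a median of 70.4%. That of MSU_M32L had 72.7%. On the array of MSU_122Rb 8.0% of spots were marked as outliers. It was also the only one of the 3 probes not well above background everywhere, falling short in Cy3 on the arrays of MSU_42L4B and MSU_60L.

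**Figure D3:**
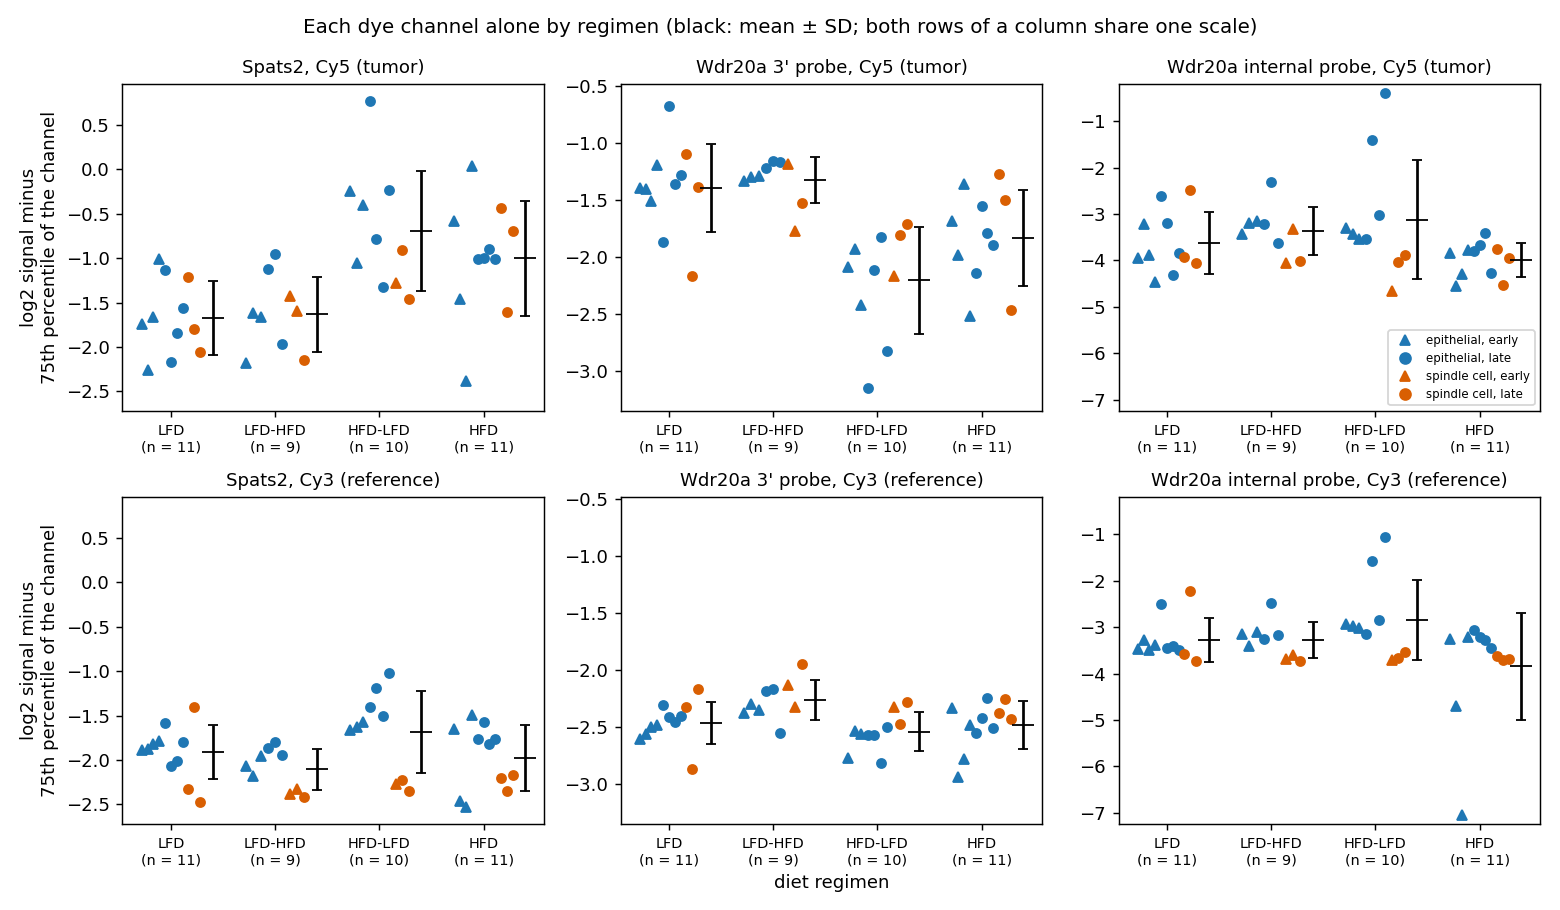
Points are single tumors, with the log2 signal of Cy5 (tumor, top) and Cy3 (reference, bottom) minus that channel's 75th percentile on the vertical axis, the 4 regimens on the horizontal axis, and black bars for the mean ± SD. For Spats2 and the Wdr20a 3′ probe the step is larger in the top row (0.80 and -0.64 between pubertal diets) than in the bottom row (0.16 and -0.14). The internal probe spreads as widely in both rows.

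Most slides hold tumors of only 1 pubertal diet, so the slide is a limit on all of these values. The 41 arrays lay on 11 slides, of which 4 (slides 1, 9, 10 and 11) held both pubertal diets, with 16 tumors. On slide 1, the only one with epithelial tumors, Spats2 was 0.75 and 0.91 in 2 HFD tumors and -0.11 and 0.29 in 2 LFD-HFD tumors, a difference of 0.74. The 3′ probe of Wdr20a was 0.40 and 0.45 in the first pair and 1.04 and 1.07 in the second, a difference of -0.63. At neither of these probes did the pairs overlap. At the internal probe they did, with -0.74 and -0.13 against -0.30 and -0.05.

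The spindle cell slides were less even. Spats2 differed by 0.20 on slide 9 (1 pubertal HFD tumor against 3), by -0.04 on slide 10 (3 against 1) and by 1.45 on slide 11 (2 against 2). The 3′ probe differed by 0.05, -0.75 and -0.10 on the same slides. The internal probe differed by -0.49, -0.21 and -0.20 there and by -0.26 on slide 1, below 0 on each. On slide 11 the scaled reference channel itself differed by -0.32 for Spats2 and 0.19 for the 3′ probe. The tumor channel differed there by 1.13 and 0.10. On slide 9 the tumor channel of the 3′ probe differed by -0.13, against 0.05 in the ratio. Slide 11 includes MSU_M32L, whose Spats2 reference signal of -1.40 was the highest of the spindle cell tumors. With slide as a fixed block in the limma fit the pubertal difference was 0.66 for Spats2, -0.36 for the 3′ probe and -0.28 for the internal probe. That fit draws the difference only from the 4 slides with both diets (16 tumors), so it sums up the single-slide values and adds nothing to them.

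**Figure D4:**
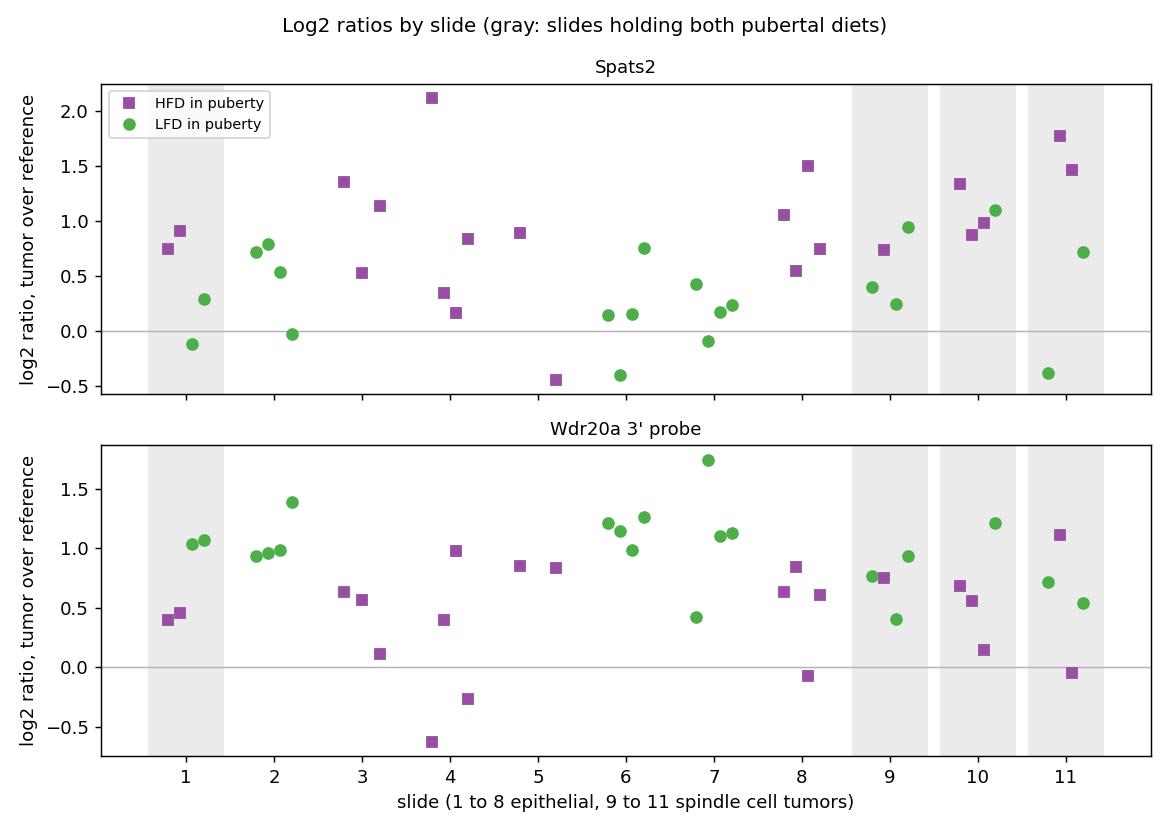
Each point is 1 tumor's log2 ratio on the vertical axis, with the slide its array lay on along the horizontal axis, squares for HFD and circles for LFD in puberty, and gray bands for the 4 slides that hold both. On slide 1 the squares lie above the circles for Spats2 (difference 0.74) and below them for the Wdr20a 3′ probe (-0.63), while slides 9 to 11 differ from each other.

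Tumor MSU_60L needs its own account, because its Spats2 value turned with the processing. From the scanner's processed signals its log2 ratio was -0.44, the lowest of all 41, and after normexp background correction followed by loess it was 1.53, and these steps were not run apart. Its array had 22.02% of spots marked as outliers, against a median of 0.665% over all arrays, and 47.5% of spots well above background in Cy3, the lowest share. On slide 5, which held MSU_60L and MSU_42L4B only, the local Cy3 background was 0 for 38.1% and 47.0% of spots, and for no spot on the other 39 arrays. Slide 5 was also a scan session of its own, with no pubertal LFD array in it.

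The Spats2 spots on slide 5 carried a Cy3 background of 317 units under a mean signal of 337 on the array of MSU_60L, and of 320 under 450 on that of MSU_42L4B. On the other 39 arrays the background of the 3 probes lay between 14 and 33. The Wdr20a 3′ spots on both arrays of slide 5 had a background of 0, and there the value of MSU_60L was 0.84 from processed signals and -0.08 after normexp and loess. Without MSU_60L the pubertal difference was 0.67 for Spats2, -0.56 for the 3′ probe and -0.14 for the internal probe, whose MSU_60L value of 2.16 rests on a Cy3 spot not well above background.

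**Figure D5:**
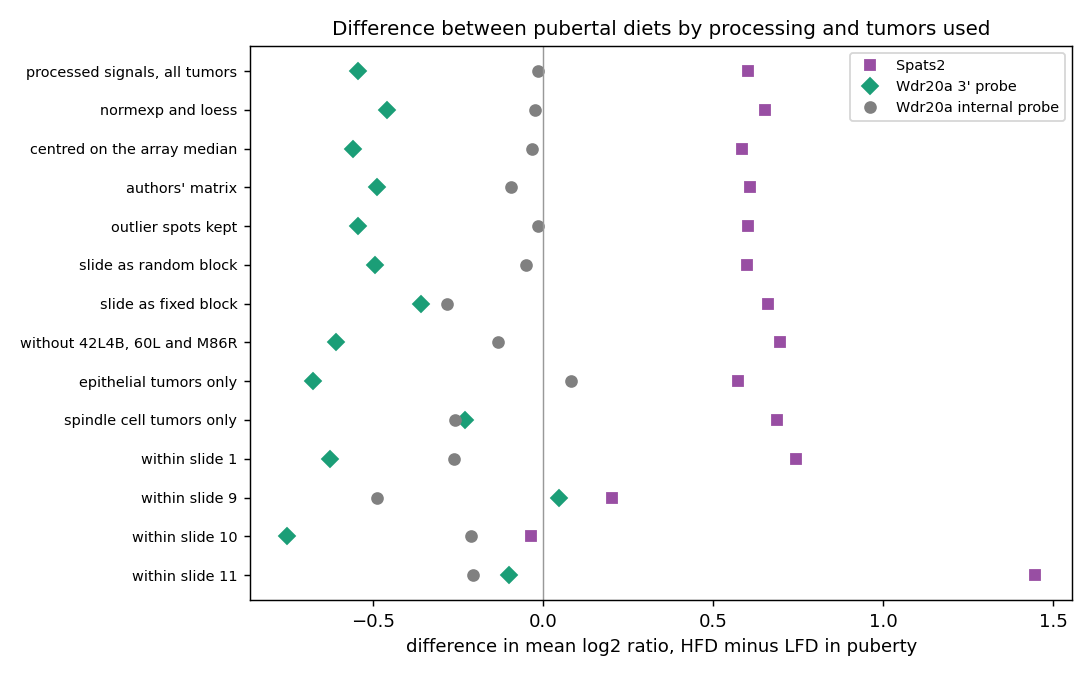
The horizontal axis is the mean log2 ratio after HFD minus that after LFD in puberty, and each row is another processing or set of tumors, with squares for Spats2, diamonds for the Wdr20a 3′ probe and circles for its internal probe. With all or most tumors in the fit the squares stay above 0 (0.60 as reported) and the diamonds below it (-0.54 as reported). The row with slide as a fixed block (-0.36 for the 3′ probe) draws only on the slides that hold both diets. The rows of those single slides scatter from -0.04 to 1.45 for Spats2 and from -0.75 to 0.05 for the 3′ probe.

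The genes listed with Wdr20 had small differences between pubertal diets over all tumors. Of 9 genes on that list, 8 had a probe and 7 passed the filter, and 0 of 7 were called between pubertal diets by limma, beside 0.011% of all probes. Their differences over all tumors ran from -0.20 to 0.12 with a median of -0.18, against a median of -0.02 over all probes. Within epithelial tumors they ran from -0.34 for Phlpp1 to 0.05 for Wdr48, with none called where 0 of 27304 probes (0%) passed. Over all tumors the deubiquitinases that Wdr20 joins, Usp12 and Usp46, had -0.09 and -0.18. Usp1, listed beside them and not named above as a partner of Wdr20, had -0.19, and the phosphatases Phlpp1 and Phlpp2 had -0.20 each.

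Wdr48, the shared activating subunit, had a pubertal difference of 0.06, and it was the only one of the 7 called between histologies, with a difference of -0.36 for spindle cell against epithelial tumors (limma adjusted p = 0.041, where 20.4% of probes were called). Dmwd, a relative of Wdr20, had 0.12. Wdr20b, a paralog, was well above background in Cy5 on 16 of 41 arrays and did not pass the filter. Spats2l, the relative of Spats2, differed by 0.25 between pubertal diets (limma adjusted p = 0.87).

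Genes next to each member on the chromosome were read through the RefSeq table of GRCm38.p6, for their order only. Of the 10 nearest genes to Spats2, 5 had a probe and 4 passed the filter, and none of the 4 was called between pubertal diets. Troap, the trophinin-associated protein, had the largest difference of these at 0.86 (limma adjusted p = 0.57), and Kcnh3, Dnajc22 and Mcrs1 had 0.49, 0.45 and 0.08. Within epithelial tumors Troap had 0.64, Kcnh3 0.58, Dnajc22 0.29 and Mcrs1 -0.06. Of the 10 nearest to Wdr20a, 6 had a probe and 5 passed, from -0.21 for Mok to 0.01 for 1700001K19Rik, with none called. Hsp90aa1, the inducible cytosolic chaperone, had -0.16. Within epithelial tumors Mok had -0.72, Hsp90aa1 -0.36, Zfp839 -0.31, 1700001K19Rik -0.11 and Dync1h1 -0.09, beside -0.67 for the Wdr20a 3′ probe. None was called there by limma, where 0 of 27304 probes (0%) passed an adjusted p of 0.10.

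The genes most like each member over the tumors were listed by Pearson r among 16825 genes, as a description. For Spats2 they were Khsrp, an RNA-binding splicing and decay factor (r = 0.70, 39 tumors), Tnfsf12 (0.67), Hist1h4j (0.66), 1500016L03Rik (0.66) and Kidins220 (0.66), each over 41 tumors. The most opposed were Zkscan4 (-0.65), Ngly1 (-0.65) and Zfp273 (-0.65), the first and last of them zinc finger genes. After normexp and loess, Khsrp, 1500016L03Rik and Kidins220 kept r at 0.67, 0.73 and 0.72, Zfp273 had -0.65 and Hist1h4j 0.52, whereas Tnfsf12 had 0.43, Zkscan4 -0.22 and Ngly1 -0.17.

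For the Wdr20a 3′ probe the most alike were Phkb, a phosphorylase kinase subunit (0.75), Iars2, the mitochondrial isoleucyl-tRNA synthetase (0.74), Cdkn2aip (0.73), Pms1, a mismatch repair relative (0.73), and Hmgxb4 (0.72), each over 41 tumors. The 3 most opposed were the histone H4 genes Hist1h4k, Hist1h4d and Hist2h4 (-0.73, -0.73 and -0.72, 40 tumors). Histone H4 genes are near-identical copies, and their probes may not tell them apart. After normexp and loess these 8 lay between 0.55 and 0.70 and between -0.68 and -0.62.

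Markers of the cell types that a tumor can hold were measured beside the genes, and their part in the results was not tested. No gene of the 8 lists was called by limma between pubertal diets, although the medians of 3 lists lay outside the range that held the middle 90% of all probes. The median difference between pubertal diets was -0.43 for 7 epithelial markers, -0.73 for the 3 adipocyte markers past the filter and -0.42 for 3 skeletal muscle markers. It was 0.28 for endothelial, 0.23 for macrophage, 0.20 for T cell, 0.12 for testis germ cell and -0.02 for fibroblast markers. Over the 41 tumors the mean of the adipocyte list had an r of -0.38 with Spats2 and that of the epithelial list -0.35, as a description, and the endothelial list had -0.39 with the Wdr20a 3′ probe. The mean log2 ratio of 7 epithelial markers ran from -2.33 to 4.26 after pubertal HFD and from -0.46 to 2.11 after pubertal LFD, and that of 4 macrophage markers from -0.60 to 1.60 and from -0.66 to 1.17. The 5 fibroblast markers ran from -3.79 to -0.60 and from -4.45 to 0.44. All 7 epithelial markers were well above background on all 41 arrays, in the spindle cell tumors as well.

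The testis list had 4 genes on the arrays and 2 past the filter, and its germ cell marker Ddx4 was well above background in Cy5 on 1 of 41 arrays. In whole tumors fewer cells of a type and less RNA per cell cannot be told apart. Trp53 itself had 1 probe, well above background on all 41 arrays, with log2 ratios from -2.25 to 3.74, and since the position of the probe against the deletion was not established this does not check the labels.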

How the data were processed

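RNA of 41 tumors was hybridised on Agilent 4x44K mouse arrays, and the deposited scanner files hold the intensity of each spot in both channels, extracted per the file headers with Feature Extraction 10.5.1.1 or 11.0.1.1, whereas the submitters' processing notes name 8.5.1.1. The authors also deposited a matrix of log2 ratios, Lowess normalised and, per their methods, with missing values imputed from 10 nearest neighbours. It served as an alternative: its columns matched the scanner ratios in direction (r from 0.87 to 0.98), and the HFD columns MSU_40R4A, MSU_57R and MSU_65R matched one another's arrays instead of their own, which puts the onset of these tumors in doubt. Precision is limited by how many arrays there are.

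The log2 ratio of rProcessedSignal over gProcessedSignal was taken per probe, without control spots and spots marked as outliers. Probes with both processed signals above 10 on at least 80% of arrays were kept, after the authors' filter. No member spot was an outlier. Each channel alone was log2 signal minus its 75th percentile on the array. Comparisons were fitted with limma 3.58.1 in R 4.3.3 (lmFit, eBayes, Benjamini-Hochberg over all 27304 probes), with thresholds of 0.10, and 0.05 for histology. The samr package of the methods was not used here. The scripts were tested on simulated data, where 98.5% of 200 probes changed by 2 on the log2 scale were called for adult diet, 96% for onset and 99% for histology, but 75.5%, 72.5% and 68% for the interactions of pubertal diet with adult diet, histology and onset. The simulated noise was independent, without slides, and a change of 2 is larger than any difference fitted for the 3 probes. These shares therefore do not cover smaller differences. Groups came from the labels, with p53 variable read as epithelial. The genes and lists were chosen with earlier results of these data known. Named genes were the members, the listed genes, the 5 nearest genes on each side of either member, Trp53, and the 5 most and 3 least correlated genes. Alternatives were background correction, centring, filters, probe choice, the deposited matrix, slide blocks, tumors left out and histology or regimen as covariates.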

Additional observations from a re-analysis of the deposited data

Results flagged for a closer look

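Within groups of 4 to 10 tumors, a value counts as far from the others when its gap to the nearest tumor is a large part of the group's range (Dixon's 95% limit), which chance exceeds in about 1 of 20 groups; 81 groups of values were examined. Tumor MSU_60L stood apart among 8 HFD epithelial tumors at the internal Wdr20a probe, with a log2 ratio of 2.16 against -0.83 to 0.04 in the others and a scaled Cy3 signal of -7.04 against -4.70 to -3.07. Tumor MSU_11L had a Cy3 signal of -2.51 at that probe, against -3.50 to -3.28 among LFD epithelial tumors and -3.50 to -3.42 among late ones. Tumor MSU_71L of LFD-HFD had -2.31 in Cy5 (others -3.62 to -3.15) and -2.48 in Cy3 (others -3.40 to -3.10) there. The arrays of MSU_11L and MSU_71L had 89.9% and 88.9% of spots well above background in Cy5, against a median of 70.4%. At the Wdr20a 3′ probe, tumor MSU_90R had a log2 ratio of 1.39 against 0.93 to 1.07 in the other LFD-HFD epithelial tumors. For Spats2, tumor MSU_62L had a Cy5 signal of -0.89 against -1.007 to -0.996 among late HFD epithelial tumors, a narrow range. Causes were not tested.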

How the results depend on the processing

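The difference between pubertal diets kept its direction for Spats2 and the Wdr20a 3′ probe in all fits over several slides. Both were chosen on this contrast in the same arrays, so the kept direction is a description and no independent support. Leaving out 1 tumor gave 0.54 to 0.67 for Spats2, -0.58 to -0.49 for the 3′ probe and -0.14 to 0.02 for the internal probe. Single slides moved most: Spats2 was -0.037 on slide 10 and 1.45 on slide 11, and the 3′ probe 0.046 on slide 9 and -0.10 on slide 11. Added after seeing the data, the mean of both Wdr20a probes gave a value of -0.28, and leaving out MSU_60L changed normexp and loess for Spats2 to 0.61. Unscaled channels gave Cy5 differences of 0.69, -0.76 and -0.18 and Cy3 differences of 0.08, -0.22 and -0.16 for Spats2, the 3′ and the internal probe.

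No tested comparison called any of the 3 probes under any alternative, and small differences changed sign. With normexp and loess these were adult diet at the 3′ probe (-0.00776), the interaction of pubertal and adult diet for Spats2 (0.025), onset (0.10 for Spats2, -0.0345 and -0.063 for the 3′ and internal probes), pubertal diet by histology for Spats2 (-0.30) and pubertal diet by onset at the 3′ probe (-0.125). With the authors' matrix they were onset at the internal probe (-0.15), pubertal diet by histology for Spats2 (-0.23) and by onset for Spats2 (-0.14) and the internal probe (-0.19). Centring gave -0.029 for onset at the internal probe. Slide as a fixed block gave 0.72 for pubertal by adult diet and -0.11 for pubertal diet by histology of Spats2, and for pubertal diet by onset -0.335 at the 3′ and -0.24 at the internal probe; histology could not be fitted with it, and 1 probe per gene leaves no value for the internal probe. Without MSU_42L4B, MSU_60L and MSU_M86R, adult diet at the internal probe was -0.0010, onset 0.00207 for Spats2 and -0.17 at the internal probe, and pubertal diet by onset -0.18 there. Leaving out 1 tumor gave onset -0.12 to 0.061 for Spats2 and -0.14 to 0.11 at the internal probe, pubertal diet by histology -0.062 to 0.23 for Spats2, and pubertal diet by onset -0.089 to 0.42 at the internal probe. The causes were not tested.

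Counts of called probes moved more than the members. Across settings they ran from 0 to 7 for pubertal diet (main 3), 0 to 13 for adult diet (0), 0 to 7 for pubertal by adult diet (0), 0 to 144 for onset (37), 3254 to 10230 for histology (5574), 2 to 2872 for pubertal diet by histology (36 higher and 71 lower) and 0 to 3 for pubertal diet by onset (0). Leaving out 1 tumor gave 1 (MSU_22R) to 380 (MSU_117L) for onset and 8 (MSU_M76R) to 581 (MSU_M18L) for pubertal diet by histology. No paired analysis was possible because the labels give no replicate numbers and the groups compared share at most 1 tumor number. Signal over background limits the internal probe on slide 5.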
